A study of Ambystoma mexicanum with 15 samples.

Results

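The comparison described here sets axolotl spinal cord 7 days after injury against spinal cord 1 day after injury. Its members were chosen from the labels alone: the 3 arrays labelled 7 days and the 3 labelled 1 day after injury without ivermectin, 6 of the 15 arrays in the series. The arrays are Affymetrix gene expression arrays of RNA from the injured region of the cord. At 7 days after injury, and likewise at 1 day, each of the 3 arrays held RNA pooled from 10 animals. All animals were white axolotls (Ambystoma mexicanum), 1 month old by the labels and 2 to 3 cm long. The shared protocol describes pressure injection of ivermectin or of water as vehicle into the central canal, marked with the dye Fast Green, followed at once by surgical removal of a piece of cord. That text gives sampling at 1 day; whether the 7 day animals received the vehicle is not stated. The other 9 arrays, 3 each of uninjured cord, cord 3 days after injury and ivermectin-treated cord 1 day after injury, shared the estimate of spread, and levels in uninjured and 3 day cord stand beside some results as values only. The replicates are pools, so the p-values measure the spread between pools of animals.

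Axolotls are salamanders that regrow a severed spinal cord. The cells that rebuild it are ependymoglia, radial cells that line the central canal, carry GFAP and vimentin filaments, and can divide and give rise to new neurons. In vertebrates generally, a wound first switches on immediate early transcription factors and inflammatory signals, after which debris is cleared by macrophages, matrix is laid down and progenitor cells proliferate. Gene symbols are those of the array's platform annotation, and the roles given for each gene are those known mainly from mammals.

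The array held 20035 probe sets after 45 control probe sets were left out, and 10951 of them carried a gene symbol, for 8639 genes. Where a gene had several probe sets, the brightest on average over the 15 arrays stood for it. All values are log2 expression, so a difference of 1 is a 2-fold change, and differences are 7 days minus 1 day ± the standard error of the limma fit. A probe set was called changed when its limma p-value, adjusted by Benjamini-Hochberg over all 20035 probe sets, was under 0.05. By this rule 8165 probe sets (40.8%) differed, of which 4825 (24.1%) were higher and 3340 (16.7%) lower at 7 days. Among the 8639 genes, 2419 (28.0%) were called higher and 1409 (16.3%) lower, with a median difference of 0.03. These percentages are the background against which the counts in each group of genes are read.

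Most called differences were small, and the large ones ran mainly downward. Of all probe sets, 725 (3.62%) were called and differed at least 2-fold, with 209 (1.04%) higher and 516 (2.58%) lower at 7 days. The 3 arrays at 7 days and the 3 at 1 day did not overlap for 9853 probe sets (49.2%). The share of calls that were higher depended on the scaling: it was 59.1% with the deposited values and 47.9% after cyclic loess normalization between arrays, with 3699 higher and 4028 lower. Directions of small shifts are therefore given below with their loess counts where these reverse the balance. Pearson correlations over all probe sets were 0.998 among the 7 day arrays and 0.998 to 0.999 among the 1 day arrays, against 0.979 to 0.982 between 7 days and 1 day. Array medians were 5.82 to 5.86 at 7 days, against 5.84 at 1 day. The added poly-A control transcripts read 7.81 to 8.09 at 7 days, against 8.04 to 8.13 at 1 day, so the ranges overlapped. The data carry no detection call: 53 of the 725 probe sets that differed at least 2-fold had their lower mean under 4.26, the highest lower quartile of the 6 arrays, and for such dim probe sets the fold is uncertain.

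**Figure D1:**
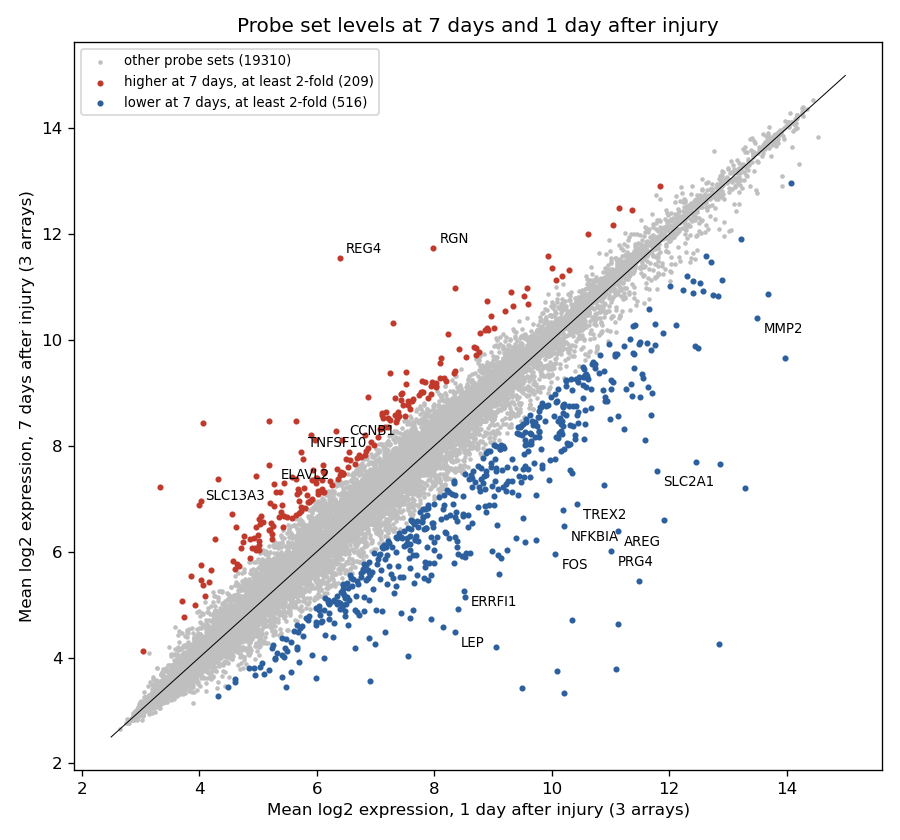
Mean log2 expression of each probe set at 7 days (vertical axis, 3 arrays) against 1 day (horizontal axis, 3 arrays), with the line of equal level. Red points are the 209 probe sets called and at least 2-fold higher at 7 days, blue points the 516 called and at least 2-fold lower, which reach farther from the line.

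Genes of epidermal growth factor (EGF) signalling and its feedback were among the named genes with large falls. AREG, amphiregulin, a ligand of the EGF receptor, read 6.43, 6.42 and 6.35 at 7 days, against 11.18, 11.07 and 11.12 at 1 day. It was 26.4-fold lower at 7 days (difference −4.72 ± 0.05, limma adjusted p = 1.45e-17), and the groups lay far apart. RHBDL2, a rhomboid protease that in mammals can release EGF family ligands from the membrane, fell by 3.50 on the log2 scale, with 6.11, 6.35 and 6.21 at 7 days, against 9.73, 9.76 and 9.70 at 1 day. ERRFI1, which binds and inhibits the EGF receptor, read 5.11, 5.36 and 5.30 at 7 days, against 8.39, 8.60 and 8.53 at 1 day. DUSP5, a nuclear phosphatase that switches off the kinase ERK, differed by −2.96 ± 0.08, and PHLDA2 by −2.61 ± 0.10. In all of these the arrays of the groups did not overlap, as was so for 49.2% of all probe sets. Of the 17 measured genes of EGF receptor ligands and ERK feedback, 10 fell, 2 rose and 5 were not called, with a median difference of −0.54 against 0.03 over all genes.

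Immediate early genes, which encode transcription factors and RNA-binding proteins induced within minutes of a stimulus, were lower almost throughout. Of 14 measured, 13 fell, none rose and 1 was not called, with a median difference of −1.30. FOS, the AP-1 transcription factor subunit, read 6.14, 5.91 and 5.82 at 7 days, against 10.06, 10.09 and 10.03 at 1 day, a 17.1-fold lower level (difference −4.10 ± 0.07, limma adjusted p = 3.17e-15). ZFP36, which destabilizes the mRNAs of cytokines, read 6.27, 5.83 and 6.02 at 7 days, against 9.25, 9.14 and 9.33 at 1 day, with the widest error of the leading genes (−3.20 ± 0.22). DUSP1, a phosphatase of stress-activated kinases, fell by 2.76, JUNB, another AP-1 subunit, by 2.13 and EGR1, a zinc finger factor, by 2.11 on the log2 scale. JUN and MYC changed far less than FOS. JUN differed by −0.31 ± 0.07 (limma adjusted p = 0.00163) and MYC, a driver of growth and division, also by −0.31 ± 0.07 (limma adjusted p = 0.00205).

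FOS and AREG were below their uninjured means by 7 days, and so were the means of their 2 lists. The immediate early list averaged 7.31 to 7.37 in uninjured cord, 7.86 to 7.91 at 1 day and 6.29 to 6.39 at 7 days. The list of EGF receptor ligands and ERK feedback averaged 7.16 to 7.21, 7.16 to 7.20 and 5.95 to 5.97 in the same order. FOS averaged 7.40 in uninjured cord, 10.06 at 1 day, 5.0 at 3 days and 5.96 at 7 days. AREG averaged 10.28 in uninjured cord, 11.12 at 1 day, 6.90 at 3 days and 6.40 at 7 days. Differences from uninjured tissue were not tested here. HBEGF, another EGF receptor ligand, named after its values were seen, averaged 7.82 in uninjured cord, 9.04 at 1 day, 7.99 at 3 days and 8.0 at 7 days. MYC averaged 7.61 in uninjured cord, 6.57 at 1 day, 5.57 at 3 days and 6.25 at 7 days.

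Feedback genes of the NF-kB pathway, the main transcriptional arm of inflammation, showed the same direction. NFKBIA, which encodes the inhibitor that holds NF-kB in the cytoplasm, read 6.52, 6.49 and 6.47 at 7 days, against 10.28, 10.20 and 10.18 at 1 day. It was 13.2-fold lower (difference −3.73 ± 0.06, limma adjusted p = 1.92e-15). PTGS2, the cyclooxygenase that makes prostaglandins in inflammation, read 3.63, 3.71 and 3.50 at 7 days, against 5.87, 5.81 and 6.30 at 1 day. The 7 day PTGS2 values lay below the lower quartile of the arrays, and it fell by 2.38. SOCS1, an inhibitor of cytokine receptors, fell by 1.93, IRF1, an interferon-induced transcription factor, by 1.85, and NFKB2, an NF-kB subunit, by 1.08. Of the 15 measured inflammatory genes, 6 fell, 3 rose and 6 were not called, and the median was −0.13. The 3 that rose, named after their values were seen, were the chemokine CXCL12 (0.88), its receptor CXCR4 (0.71) and the prostaglandin E synthase PTGES (0.56).

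**Figure D2:**
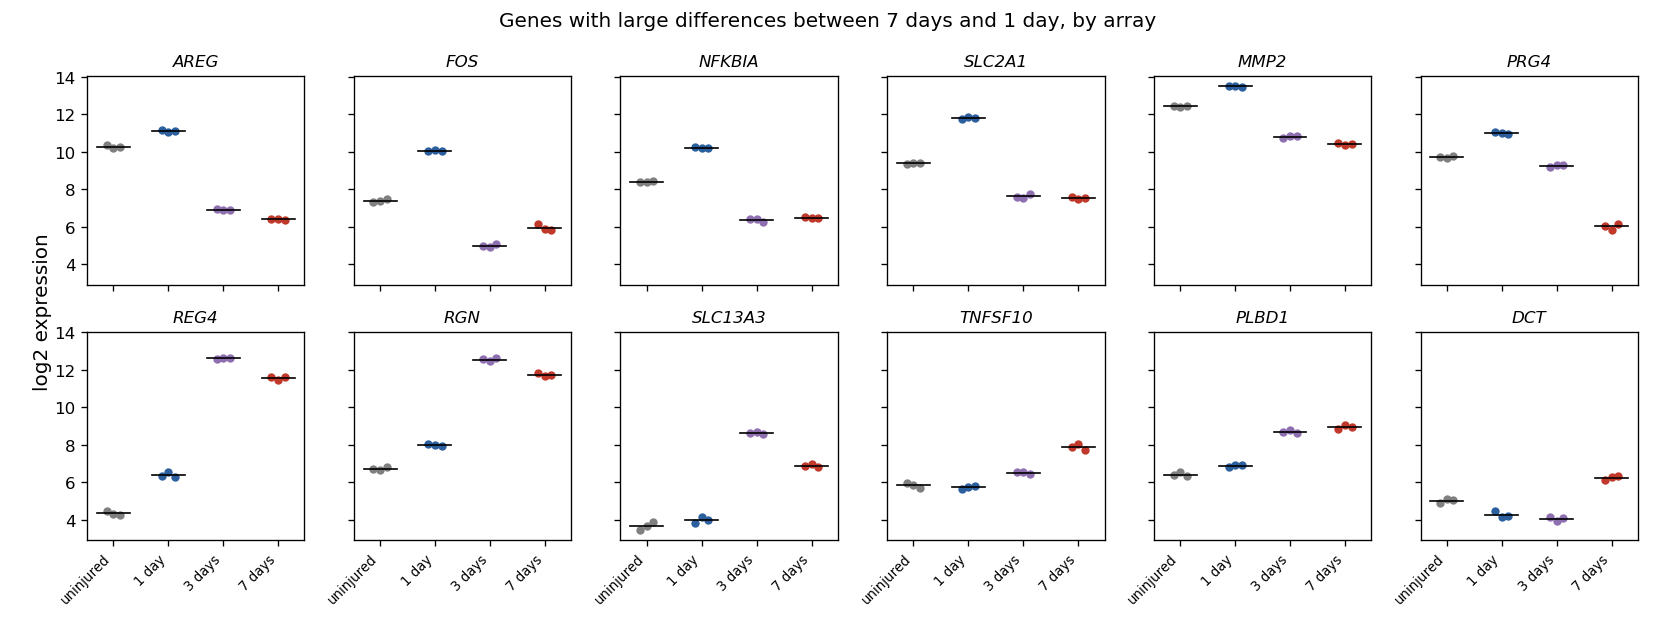
Log2 expression on each array (points) and group means (bars) for 12 genes with large differences, in uninjured cord and at 1, 3 and 7 days after injury, 3 arrays each. The upper row holds genes lower at 7 days than at 1 day by the probe set shown (AREG 6.40 and 11.12). The lower row holds genes that were higher (REG4 11.56 and 6.39). MMP2, in the upper row, is shown by its brighter probe set, and its other probe set rose.

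Macrophage genes that were called mostly moved the other way. Of 22 measured macrophage and leukocyte markers, 12 rose and 2 fell, with a median of 0.39 against 0.03 over all genes. Their mean level was 7.73 to 7.76 at 7 days, against 7.26 at 1 day. That mean was 7.33 to 7.36 in uninjured cord, above the 1 day level. GPNMB, a glycoprotein of lipid-laden and phagocytic macrophages, read 10.69, 10.62 and 10.65 at 7 days, against 9.36, 9.31 and 9.36 at 1 day (difference 1.30 ± 0.05, limma adjusted p = 9.28e-12). AIF1, the actin-binding microglial marker also called IBA1, rose by 1.26 ± 0.05, with 10.17, 10.20 and 10.17 at 7 days, against 8.91, 8.91 and 8.94 at 1 day. C1QB, a chain of complement C1q made by macrophages and microglia, rose by 1.18 ± 0.08. CTSK, a lysosomal collagen-degrading protease of osteoclasts and some macrophages, rose by 1.12 ± 0.07, and MARCO, a scavenger receptor, by 1.46 ± 0.14. None of these 5 genes overlapped between the groups, as was so for 49.2% of all probe sets. The 2 that fell, named after their values were seen, were the transcription factor SPI1 (−0.90 ± 0.08) and CYBA (−0.25 ± 0.04). SPI1 averaged 5.67 at 7 days and 6.57 at 1 day.

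Of the 4 genes set as defining for macrophages, C1QB was the one called. CSF1R, the receptor for the macrophage growth factor, averaged 6.45 ± 0.08 at 7 days and 6.46 ± 0.01 at 1 day (SD, n = 3 each), and its difference of −0.01 was not called. CTSS, a macrophage cathepsin, differed by 0.15 ± 0.06 (limma adjusted p = 0.0627). PTPRC, the pan-leukocyte phosphatase CD45, averaged 3.88 at 7 days and 3.91 at 1 day, both below the lower quartile of the arrays. Among the leading rises, PLBD1, a phospholipase of granulocytes and macrophages, was 4.17-fold higher (8.82, 9.03 and 8.93 at 7 days, against 6.79, 6.91 and 6.90 at 1 day). GPR34, a lysophosphatidylserine receptor typical of microglia, was 3.29-fold higher, and TNFSF10, the death ligand TRAIL, 4.42-fold higher. TNFSF10 read 7.86, 8.03 and 7.74 at 7 days, against 5.66, 5.76 and 5.78 at 1 day. The leading rises were taken only from genes whose arrays did not overlap between the groups. The RNA came from whole tissue, so more or fewer cells of a type and more or less RNA per cell cannot be told apart, here and in all the groups of genes that follow.

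Among extracellular proteases and their inhibitors, 9 of 22 measured fell and 3 rose, each counted by its brightest probe set. Of those counted as falls, MMP2, HTRA1 and BMP1 had probe sets called in opposite directions. TIMP1, an inhibitor of matrix metalloproteinases, read 10.89, 10.85 and 10.89 at 7 days, against 13.68, 13.69 and 13.66 at 1 day, a 6.96-fold lower level (difference −2.80 ± 0.04, limma adjusted p = 4.77e-16). MMP2, a gelatinase, had conflicting probe sets: the brighter differed by −3.09 ± 0.05, while the other rose by 0.94, averaging 10.87 at 7 days and 9.93 at 1 day, so no direction can be given for the gene. MMP19, a protease of basement membrane proteins, fell by 1.81, ADAMTS1, which cleaves proteoglycans, by 1.79 and TIMP3, a matrix-bound inhibitor, by 1.30. MMP9, the other gelatinase, averaged 4.92 ± 0.09 at 7 days and 4.94 ± 0.18 at 1 day (SD, n = 3 each) and was not called. The 3 that rose, named after their values were seen, were the lysosomal proteases CTSB (0.82) and CTSD (0.70) and the protease inhibitor SERPINE2 (0.59).

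Structural matrix genes shifted modestly, and in both directions. Of 63 measured, 26 rose, 14 fell and 23 were not called, with a median of 0.10. FN1, fibronectin, the adhesive glycoprotein of provisional wound matrix, read 10.99, 11.06 and 11.13 at 7 days, against 10.16, 10.24 and 10.18 at 1 day, 1.82-fold higher (limma adjusted p = 7.78e-09). Its dimmer probe set, near 4 in both groups, was not called. LAMA1, a basement membrane laminin chain, rose by 0.60 ± 0.07, and P4HA2, which hydroxylates collagen prolines, also by 0.60 ± 0.07. THBS1, thrombospondin, a matrix protein released in wounds, differed by −0.87 ± 0.06, and COL4A5, a basement membrane collagen chain, by −0.63 ± 0.06. COL1A1, the main fibrillar collagen of scar and bone, averaged 13.30 at 7 days and 13.32 at 1 day and was not called (limma adjusted p = 0.792), although its other probe set was 0.23 lower.

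Genes of epidermis and epithelia were mostly lower: of 33 measured, 27 fell, 1 rose and 5 were not called, with a median of −0.63. Their mean level was 8.29 to 8.38 at 7 days, against 9.11 to 9.14 at 1 day. In uninjured cord it was 9.50 to 9.52. TREX2, an exonuclease of keratinocytes, read 6.92, 6.82 and 6.97 at 7 days, against 10.57, 10.35 and 10.37 at 1 day, 11.5-fold lower. TGM1, the transglutaminase that crosslinks the skin's cornified envelope, fell by 2.24, and GRHL3, a transcription factor of epidermal barrier formation, by 2.02. CLDN3, a tight junction protein, fell by 1.71, and TP63, the master factor of stratified epithelium, by 1.66. EPCAM, an epithelial adhesion molecule, averaged 11.48 ± 0.02 at 7 days and 12.71 ± 0.01 at 1 day (SD, n = 3 each). The part of epithelial tissue in the other results was not tested.

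Genes of cartilage, bone and tendon, tissues that surround the cord, went both ways, with 7 higher and 10 lower of 27. PRG4, lubricin, the lubricating proteoglycan of joints, had the deepest fall of any named gene. It read 6.05, 5.84 and 6.17 at 7 days, against 10.96 to 11.06 on the 3 arrays at 1 day, 31.7-fold lower (difference −4.99 ± 0.08, limma adjusted p = 1.55e-15). PTHLH, parathyroid hormone-like hormone, which acts on cartilage and is made by keratinocytes, was 3.85-fold lower. CTHRC1, a secreted collagen-modulating protein of wound fibroblasts, was 2.08-fold higher, and CILP, a cartilage matrix protein, 1.58-fold lower. SDC4, a heparan sulfate proteoglycan at cell adhesions, read 6.80, 6.60 and 6.54 at 7 days, against 9.47, 9.51 and 9.54 at 1 day. LEP, leptin, the hormone of adipose tissue, read 4.51, 4.55 and 4.39 at 7 days, against 8.33, 8.37 and 8.34 at 1 day, 14.6-fold lower, with its 7 day level close to the lower quartile of the arrays.

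Energy and stress genes split. SLC2A1, the glucose transporter GLUT1, read 7.57, 7.48 and 7.54 at 7 days, against 11.73, 11.87 and 11.78 at 1 day, 19.2-fold lower (difference −4.26 ± 0.06, limma adjusted p = 5.8e-16). DDIT4, a stress-induced inhibitor of the growth kinase mTORC1, read 7.48, 7.56 and 7.41 at 7 days, against 10.46, 10.37 and 10.21 at 1 day, and SLC16A1, a lactate and pyruvate transporter, fell by 1.41. In these 3 genes the arrays of the groups did not overlap, as was so for 49.2% of all probe sets. NDRG1, a hypoxia and stress response gene, went up instead, 3.67-fold, with 9.32, 9.46 and 9.42 at 7 days, against 7.34, 7.62 and 7.62 at 1 day. BNIP3, a mitochondrial protein of hypoxia and mitophagy, rose 3.18-fold. Of 31 measured glycolysis and hypoxia genes 12 rose and 9 fell, so members with related annotation moved in opposite directions. GFPT2, which opens the hexosamine pathway from glucose to glycosylation, was 8.73-fold lower.

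Chaperone genes fell more than they rose, with 16 lower and 12 higher of 55 and a median of −0.06, and every difference of at least 2-fold among them was a fall (5 genes). HSP90AA1, the inducible cytosolic HSP90, read 6.86, 6.97 and 6.77 at 7 days, against 8.81, 8.88 and 8.90 at 1 day (difference −2.00 ± 0.06). HSPA5, the chaperone BiP of the endoplasmic reticulum, read 8.47, 7.88 and 8.15 at 7 days, against 10.01, 10.05 and 10.16 at 1 day, with a wider error (−1.91 ± 0.18, limma adjusted p = 4.84e-07). HERPUD1, which works in the removal of misfolded proteins, fell by 1.17, DDIT3, the stress factor CHOP, by 1.04 and DNAJB9, a co-chaperone of BiP, by 1.02. HSPA5 averaged 11.21 in uninjured cord, 10.07 at 1 day, 10.38 at 3 days and 8.17 at 7 days. INSIG1, which retains the sterol sensor in the endoplasmic reticulum and restrains cholesterol synthesis, rose 3.87-fold, with 8.18, 8.43 and 8.24 at 7 days, against 6.11, 6.47 and 6.42 at 1 day. Its mean was 8.65 in uninjured cord, 6.33 at 1 day, 8.53 at 3 days and 8.28 at 7 days, so the 7 day level was not above the uninjured mean. The cholesterol synthesis list, which holds INSIG1 itself, did not rise as a group. Of the 24 measured, 7 rose and 5 fell, and 3 rose and 7 fell after cyclic loess.

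Among genes with a symbol, the 3 largest rises were in genes of secretion and metabolism whose means were higher still at 3 days. REG4, a secreted C-type lectin known from intestine, read 11.62, 11.45 and 11.61 at 7 days, against 6.34, 6.54 and 6.29 at 1 day, 36.0-fold higher (difference 5.17 ± 0.08, limma adjusted p = 4.77e-16). RGN, regucalcin, a calcium-binding lactonase of liver, read 11.82, 11.65 and 11.74 at 7 days, against 8.03, 7.99 and 7.91 at 1 day, 13.6-fold higher. SLC13A3, a sodium-coupled dicarboxylate transporter of kidney tubules, read 6.86, 6.98 and 6.81 at 7 days, against 3.84, 4.12 and 4.0 at 1 day. Its 1 day level was below the lower quartile of the arrays, so its 7.44-fold rise rests on a dim starting value. In each of the 3 genes the groups were several log2 units apart.

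These genes did not climb steadily over the week. REG4 averaged 4.35 in uninjured cord, 6.39 at 1 day, 12.62 at 3 days and 11.56 at 7 days. RGN averaged 6.73 in uninjured cord, 7.98 at 1 day, 12.53 at 3 days and 11.74 at 7 days, and SLC13A3 3.66, 3.99, 8.61 and 6.88 in the same order. ALDH1B1, a mitochondrial aldehyde dehydrogenase, was 4.45-fold higher at 7 days than at 1 day, and DAO, D-amino acid oxidase, 3.60-fold higher. FABP3, a fatty acid carrier of muscle and heart, was 3.59-fold higher, and PDZK1IP1, a membrane protein of kidney epithelium, 3.55-fold higher. DCT, dopachrome tautomerase of the melanin pathway, behaved differently over time. It read 6.13, 6.26 and 6.34 at 7 days, against 4.48, 4.15 and 4.20 at 1 day, with means of 5.02 in uninjured cord and 4.06 at 3 days.

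Because several of these genes are known from liver, kidney or intestine, the marker lists of those organs were counted; the lists hold RGN, SLC13A3 and REG4 themselves. Of 17 measured liver genes 7 rose, 2 fell and 8 were not called, with a median of 0.10. After cyclic loess 7 rose and 4 fell. APOH, a plasma glycoprotein, read 10.98, 10.88 and 10.88 at 7 days, against 9.29, 9.33 and 9.31 at 1 day. CYP7B1, an oxysterol hydroxylase of bile acid synthesis, rose by 1.5 and SLC2A2, the glucose transporter GLUT2, by 1.39. The 2 that fell, named after their values were seen, were OTC (−0.28) and TAT (−0.27). The mean of the liver list was 7.32 to 7.37 at 7 days, against 6.77 to 6.82 at 1 day, and without RGN it was 7.05 to 7.09 at 7 days, against 6.69 to 6.74 at 1 day. Its defining members ALB and FGA were not analysed here. Of 9 kidney genes 3 rose and 3 fell, and of 10 intestinal genes 3 rose and 3 fell. Without REG4 the intestinal list averaged 7.80 to 7.83 at 7 days, against 7.85 to 7.88 at 1 day, and without SLC13A3 the kidney list 6.54 to 6.63 at 7 days, against 6.74 to 6.77 at 1 day. CDH17, an intestinal cadherin, rose by 1.04, whereas VIL1, a protein of the intestinal brush border, differed by −0.77 and UMOD, the urinary protein uromodulin, by −1.65. The part of tissue from other organs in these results was not tested.

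Of 61 measured G2 and M phase genes 21 rose (34.4%), 2 fell and 38 were not called, with a median of 0.14, and after cyclic loess 17 rose and 7 fell. The share that rose is near the 28.0% over all genes. CCNB1, cyclin B1, which drives entry into mitosis, read 8.07, 8.20 and 8.07 at 7 days, against 6.40, 6.38 and 6.52 at 1 day, 3.20-fold higher (difference 1.68 ± 0.06, limma adjusted p = 1.13e-11), and all 3 of its probe sets rose. AURKA, a kinase of the spindle poles, read 7.32, 7.31 and 7.18 at 7 days, against 6.21, 6.21 and 6.34 at 1 day. FBXO5, an inhibitor of the anaphase-promoting complex, rose by 0.87, CCNB3, cyclin B3, by 0.85, and KIFC1, a spindle kinesin, by 0.83. MKI67, the proliferation marker Ki-67, rose by 0.37 ± 0.07 (limma adjusted p = 0.00028). The mean level of the list was 7.00 to 7.03 at 7 days, against 6.78 to 6.83 at 1 day. In uninjured cord it was higher than at either time, 7.66 to 7.69. CCNB1 averaged 8.94 in uninjured cord, 6.44 at 1 day, 7.51 at 3 days and 8.11 at 7 days.

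S phase genes gave a mixed picture. Of 52 measured, 14 rose (26.9%) and 3 fell, but the median was −0.01, and after cyclic loess 10 rose and 11 fell, so the balance depends on the scaling. GMNN, geminin, which blocks re-replication, read 9.64, 9.63 and 9.63 at 7 days, against 8.69, 8.67 and 8.76 at 1 day, 1.90-fold higher. POLD2, a subunit of DNA polymerase delta, rose by 0.51 and CCNE1, cyclin E1, by 0.45. PCNA, the sliding clamp of DNA replication, went down slightly, with 11.41, 11.40 and 11.40 at 7 days, against 11.58, 11.58 and 11.63 at 1 day (difference −0.19 ± 0.05, limma adjusted p = 0.00364). The mean level of the S phase list was 7.62 to 7.65 at 7 days, against 7.55 to 7.59 at 1 day. In uninjured cord it was higher, 8.21 to 8.27.

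**Figure D3:**
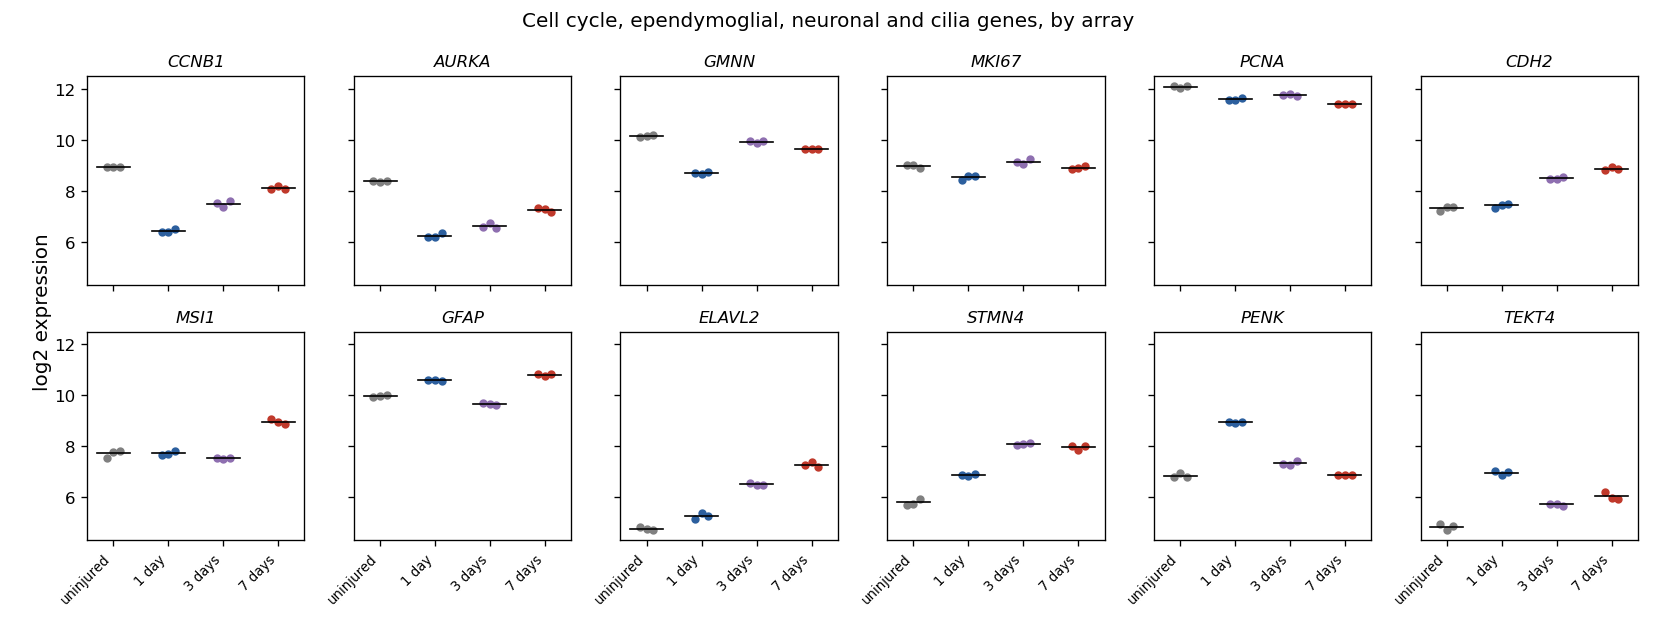
Log2 expression on each array (points) and group means (bars) for 12 cell cycle, ependymoglial, neuronal and cilia genes in uninjured cord and at 1, 3 and 7 days after injury, 3 arrays each. CCNB1 averaged 8.11 at 7 days and 6.44 at 1 day, MSI1 8.95 and 7.73, and PENK 6.89 and 8.94.

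Among ependymoglial and neural stem cell genes 14 of 35 rose and 8 fell, with a median of 0.08. CDH2, N-cadherin, the adhesion molecule of neuroepithelium, read 8.83, 8.93 and 8.86 at 7 days, against 7.34, 7.47 and 7.5 at 1 day, 2.70-fold higher (limma adjusted p = 4.66e-11). MSI1, the RNA-binding protein Musashi of neural progenitors, read 9.06, 8.94 and 8.86 at 7 days, against 7.68, 7.72 and 7.81 at 1 day, 2.33-fold higher. FGFR3, a fibroblast growth factor receptor of radial glia, was 2.49-fold higher, and PROM1, the membrane protein prominin, 2.08-fold higher. HOPX, a stem cell homeodomain protein, went the other way, by −1.16 ± 0.09. The filament genes that define ependymoglia changed little. GFAP read 10.85, 10.75 and 10.83 at 7 days, against 10.61, 10.59 and 10.58 at 1 day (difference 0.22 ± 0.05, limma adjusted p = 0.00163), and VIM rose by 0.24 ± 0.04 (limma adjusted p = 0.000246). FABP7, a fatty acid carrier of radial glia, differed by −0.30 ± 0.11 (limma adjusted p = 0.0365), and SOX2 was not analysed here.

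Of 63 measured neuronal genes 16 rose (25.4%) and 11 fell (17.5%), near the 28.0% and 16.3% over all genes. The mean level of the list overlapped between the groups, 6.06 to 6.07 at 7 days, against 6.05 to 6.09 at 1 day. Single members changed strongly. ELAVL2, an RNA-binding protein of young and mature neurons, read 7.27, 7.39 and 7.18 at 7 days, against 5.14, 5.39 and 5.28 at 1 day, 4.02-fold higher. STMN4, a stathmin of growing neurites, rose 2.12-fold, and STMN2, a related growth cone protein, by 0.42 ± 0.04. PENK, the precursor of enkephalin peptides, read 6.88, 6.88 and 6.90 at 7 days, against 8.95, 8.91 and 8.97 at 1 day, 4.15-fold lower. TAC1, the precursor of substance P, was 2.69-fold lower and MAPT, the axonal protein tau, 2.12-fold lower. NEFL, a neurofilament chain, differed by −0.44 ± 0.07, and SYT1, a synaptic vesicle protein, read below the lower quartile in both groups (3.28 at 7 days and 3.27 at 1 day). SNAP25 and ELAVL3 were not analysed here.

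Of 39 measured transmitter receptors and transporters 3 rose, 3 fell and 33 were not called. P2RX7, an ATP-gated channel found on microglia, rose by 0.93, SLC1A3, a glial glutamate transporter, by 0.45 and CHRNA1 by 0.39. The 3 that fell were CHRNA4 (−0.45), SLC1A2, another glutamate transporter (−0.39), and GABRA5 (−0.30). Among ion channels and pumps, 35 of 51 were not called, with 8 higher and 8 lower. ATP1B2, a glial sodium pump subunit, read 11.60, 11.63 and 11.56 at 7 days, against 12.58, 12.63 and 12.65 at 1 day. CACNA1G, a T-type calcium channel, and KCNN2, a calcium-activated potassium channel, each fell by 0.73. Probe sets of SLC4A4, a bicarbonate cotransporter, disagreed, with 1.35 and 0.34 for those that rose and −0.38 for the other.

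Myelin genes split evenly, with 5 higher and 5 lower of 20. MBP, myelin basic protein, averaged 10.97 ± 0.05 at 7 days and 11.79 ± 0.03 at 1 day (SD, n = 3 each), 1.76-fold lower (limma adjusted p = 3.28e-09). It averaged 11.12 in uninjured cord, 11.79 at 1 day, 12.35 at 3 days and 10.97 at 7 days. UGT8, which makes the myelin lipid galactosylceramide, fell by 0.94, PMP22, a myelin membrane protein, by 0.93 and BCAS1, a marker of myelinating oligodendrocytes, by 0.78. GPR37, a receptor of oligodendrocytes, rose by 0.76.

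Genes of motile cilia, which line the central canal and beat its fluid, were lower as a group. Of 48 measured, 26 fell and 6 rose, with a median of −0.22 and a mean level of 5.64 to 5.68 at 7 days, against 5.91 to 5.95 at 1 day. In uninjured cord the mean level was 5.26, below that at 7 days. After cyclic loess 25 fell and 3 rose. The 6 that rose with the deposited values, named after these were seen, were IFT74 (0.54), MNS1 (0.31), IFT57 (0.29), IFT80 (0.25), IFT52 (0.23) and EFHC2 (0.20). RSPH9, a radial spoke protein, read 5.90, 5.66 and 5.84 at 7 days, against 6.80, 6.92 and 6.44 at 1 day. TEKT4, a tektin of the axoneme, was 1.89-fold lower, and DNALI1, an axonemal dynein chain, 2.36-fold lower. DNAI1 and DNAH11, further dynein chains, averaged about 4 at 7 days, under the lower quartile of the arrays, with differences of −0.99 ± 0.15 and −0.98 ± 0.10.

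**Figure D4:**
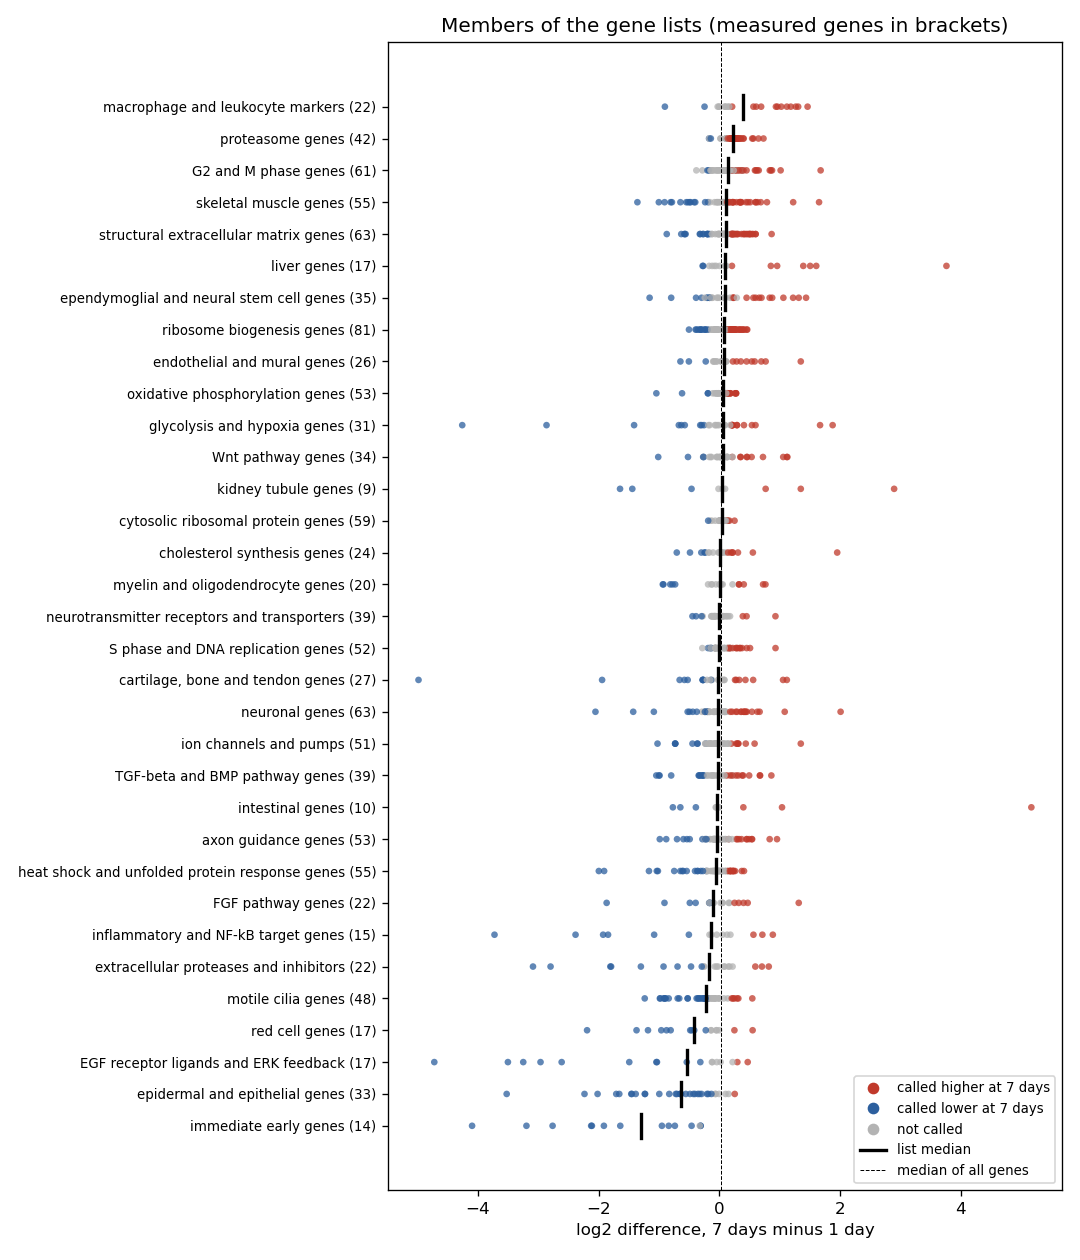
Log2 difference (7 days minus 1 day, horizontal axis) of every measured member of the 33 gene lists, ordered by list median (thick bar), with the median of all genes, 0.03, as a dashed line. Immediate early genes lie lowest (median −1.30, 14 genes) and macrophage and leukocyte markers highest (0.39, 22 genes).

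Of 17 measured red cell genes 10 fell, 2 rose and 5 were not called, with a median of −0.42. Several of the genes that fell serve heme synthesis. ALAS2, the erythroid enzyme that starts it, read 8.29, 8.09 and 8.23 at 7 days, against 10.39, 10.38 and 10.41 at 1 day, 4.57-fold lower. SLC25A37, the mitochondrial iron importer, was 2.27-fold lower, ALAD, a heme synthesis enzyme, 1.95-fold lower and FECH, which inserts the iron, 1.84-fold lower. NFE2, an erythroid transcription factor, fell by 1.37. Genes of the red cell membrane and its skeleton, named after their values were seen, were not called lower: RHAG, of the Rh complex, rose by 0.55, and the differences of the anion exchanger SLC4A1 (−0.05), the spectrin SPTB (−0.05), and EPB41 (−0.13), a skeletal protein, were not called. Of these, EPB41 averaged 4.17 at 7 days and 4.31 at 1 day, and SLC4A1 4.51 and 4.56, near the arrays' lower quartile. ANK1, not called either, averaged 3.92 and 3.93, below it. For such dim probe sets a lack of change cannot be read from the lack of a call. The list's mean level was 6.60 to 6.68 at 7 days, against 7.12 to 7.15 at 1 day. In uninjured cord it was 6.60 to 6.64. The globin genes HBA1 and HBB were not analysed here, and the part of blood in the other results was not tested.

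Of 26 measured vessel and smooth muscle genes, 9 rose (34.6%), 3 fell (11.5%) and 14 were not called. Over all genes the shares were 28.0% higher and 16.3% lower. The list median was 0.08, against 0.03 over all genes. TAGLN, an actin-binding protein of smooth muscle and myofibroblasts, read 10.67, 10.44 and 10.54 at 7 days, against 9.22, 9.22 and 9.17 at 1 day, 2.55-fold higher. PECAM1, the endothelial adhesion molecule CD31, rose by 0.77, LYVE1, a receptor of lymphatic endothelium and some macrophages, by 0.69, and MYL9, a smooth muscle myosin light chain, by 0.58. KDR (−0.05) and FLT1 (−0.08), also of this list and named after their values were seen, were not called. TAL1, among the 3 that fell, differed by −0.23 ± 0.07. The probe sets of DES, the muscle filament desmin, disagreed in direction.

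Skeletal muscle transcripts were abundant in all the injured samples and in uninjured cord. CKM, muscle creatine kinase, averaged 14.40 ± 0.02 at 7 days and 14.28 ± 0.01 at 1 day (SD, n = 3 each), and TTN, titin, 12.46 ± 0.06 and 11.94 ± 0.01. Their uninjured means were 14.08 for CKM and 11.03 for TTN. Of 55 measured muscle genes 26 rose and 14 fell, with a median of 0.11. The mean of the list was 9.67 to 9.74 at 7 days, against 9.64 to 9.65 at 1 day. In uninjured cord it was 8.64 to 8.67. TRIM63, the ubiquitin ligase of muscle atrophy, read 9.35, 9.05 and 9.12 at 7 days, against 7.69, 7.51 and 7.38 at 1 day, 3.14-fold higher. LMOD3, which builds thin filaments, rose 2.33-fold. MYBPC1, the slow-type myosin-binding protein C, was 2.57-fold lower, ACTN2, a Z-disc actinin, 2.01-fold lower and MYL2, a slow and cardiac myosin light chain, 1.88-fold lower. The part of muscle tissue in the other results was not tested.

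**Figure D5:**
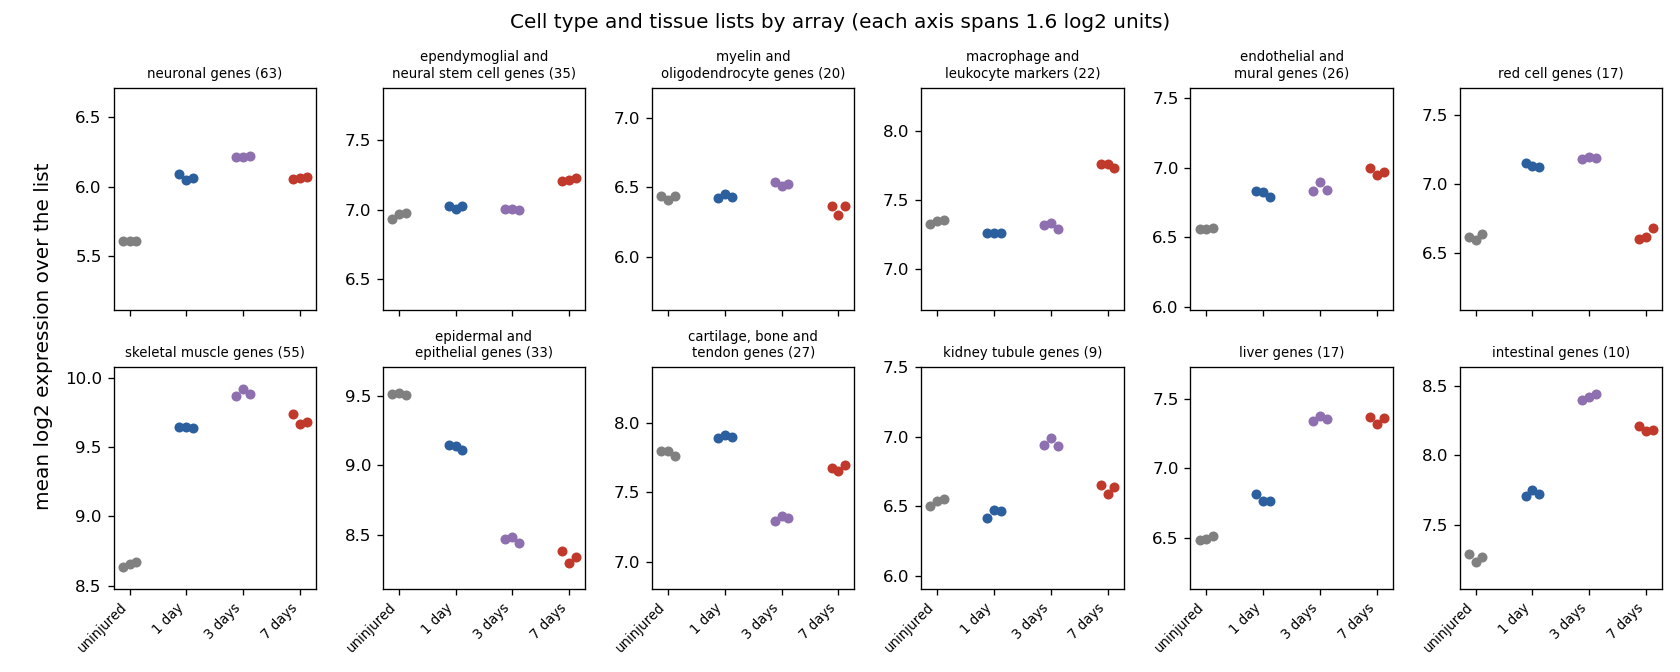
Mean log2 expression of 12 cell type and tissue lists on each array (points) in uninjured cord and at 1, 3 and 7 days after injury, with the number of measured genes in brackets. The macrophage list was 7.73 to 7.76 at 7 days and 7.26 at 1 day, and the epidermal list 8.29 to 8.38 at 7 days and 9.11 to 9.14 at 1 day.

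In the developmental signalling pathways, ligands, receptors and modulators were called in both directions. In the Wnt pathway 10 of 34 genes rose (29.4%) and 4 fell (11.8%), near the 28.0% and 16.3% over all genes. SFRP2, a secreted Wnt-binding protein, read 12.22, 12.14 and 12.15 at 7 days, against 11.04, 11.03 and 11.06 at 1 day. DKK3, of the Dickkopf family of secreted proteins, rose by 1.12, WNT2B, a ligand, by 1.06 and DKK2, which binds Wnt coreceptors, by 0.72. LEF1, a transcription factor of the pathway, read 4.30, 4.21 and 4.20 at 7 days, against 5.38, 5.04 and 5.34 at 1 day, near or below the lower quartile at 7 days. Of 39 TGF-beta and BMP genes 11 rose and 11 fell (28.2% each). The ligand BMP2 fell by 0.99, the repressors TGIF1 and SKIL by 1.05 and 1.00, and ID2, a target of BMP signalling, by 0.80, while SMAD5, which carries the BMP signal to the nucleus, rose by 0.86.

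In the FGF pathway 5 of 22 genes rose (22.7%) and 6 fell (27.3%), against 28.0% and 16.3% over all genes. FGFBP1, a carrier that releases FGFs from the matrix, read 8.45, 8.24 and 8.19 at 7 days, against 10.16 on each array at 1 day, 3.65-fold lower. FLRT2, an adhesion protein that modulates FGF signalling, fell by 0.91, and FGF2, a ligand, by 0.49. SPRY1, a feedback inhibitor, rose by 0.47. Of 53 axon guidance genes 12 rose (22.6%) and 9 fell (17.0%), shares near those over all genes. NRP1, a coreceptor for semaphorins, read 9.17, 9.35 and 9.24 at 7 days, against 8.31, 8.31 and 8.27 at 1 day. SLIT2, a repellent ligand of Robo receptors, rose by 0.83, whereas the receptor EPHA1 fell by 0.99 and the repellents SEMA3F and SEMA3E by 0.88 and 0.70.

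Genes of protein turnover rose broadly but by little. Of 42 measured proteasome genes 34 rose and 2 fell, with a median of 0.22 against 0.03 over all genes, and 27 rose and 3 fell after cyclic loess. PSMD6, a subunit of the regulatory lid, read 11.25, 11.26 and 11.22 at 7 days, against 10.69, 10.67 and 10.68 at 1 day, 1.48-fold higher. PSMD9, an assembly chaperone, rose by 0.65 and POMP, which matures the core particle, by 0.54. The list's mean level was 9.99 to 10.01 at 7 days, against 9.76 to 9.77 at 1 day. In uninjured cord it was 10.11 to 10.15.

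Ribosome and mitochondrial genes showed no direction that held under both scalings. Of 81 ribosome biogenesis genes 34 rose and 12 fell with the deposited values, and 14 rose and 18 fell after cyclic loess. UTP18, of the small subunit processome, differed by −0.50 ± 0.06, and POLR1E, a subunit of RNA polymerase I, by 0.45 ± 0.09. Of 59 cytosolic ribosomal protein genes 6 rose and 1 fell, or 1 and 4 after cyclic loess. Of 53 oxidative phosphorylation genes 14 rose and 4 fell, or 4 and 6 after cyclic loess. CYCS, cytochrome c, differed by −0.62 ± 0.05, and NDUFS4, a subunit of complex I, by 0.28 ± 0.05.

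The widest falls of all belonged to probe sets without a gene symbol, whereas the largest rise was that of REG4 (5.17). Of the 9084 such probe sets 1901 were called higher and 1643 lower, and 93 of the higher and 269 of the lower differed at least 2-fold. Over all 20035 probe sets the counts were 4825 higher and 3340 lower, with 209 and 516 at least 2-fold. Probe set axo08180-f_at averaged 4.27 at 7 days and 12.86 at 1 day, 386-fold lower, and axo08183-f_at differed by −7.30 ± 0.12. Both probe sets were dim at 7 days, close to the arrays' lower quartile or under it. In the other direction, axo21687-r_at averaged 8.43 at 7 days and 4.06 at 1 day, and axo27202-f_at 7.22 at 7 days and 3.34 at 1 day.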

How the data were processed

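RNA was labelled with Affymetrix's 3' IVT kit and hybridized to 1 array per pool of 10 animals, per the labels' protocols. The authors' deposited values are log2 expression per probe set; the submitters' processing notes name RMA and Affymetrix Expression Console, without versions. RMA corrects background, brings arrays to 1 distribution by quantile normalization and summarizes probes, so a change in total RNA per cell would not show. Whether the 15 arrays were normalized together is not given in the sources used here.

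The deposited values were used as they are. limma 3.58.1 in R 4.3.3 (lmFit, eBayes, 2-sided) fitted 1 mean per group over 15 arrays in 5 groups of 3, with Benjamini-Hochberg adjustment over 20035 probe sets after 45 AFFX controls were left out. The number of arrays limits the precision, and the fitted standard error had a median of 0.07. The script was tested on simulated data. Named were the 15 largest rises and 15 largest falls among called genes whose arrays did not overlap, up to 5 called members of each of 33 gene lists with the largest differences, and 14 chosen genes. The members and lists were chosen with earlier results of these data known. Lists are described by counts and medians, without a set test. Replicate numbers did not pair the samples: residuals of same-numbered 7 day and 1 day arrays correlated at −0.01, 0.07 and −0.10. Alternatives were a replicate block, only the 7 and 1 day arrays, an intensity trend, median centring, cyclic loess, dim probe sets left out, 1 probe set per gene, array weights, a 2-fold minimum, averaged probe sets per gene in the lists, and each array left out. Figures were drawn with matplotlib.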

Additional observations from a re-analysis of the deposited data

How the results depend on the processing

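The 8165 calls (4825 higher, 3340 lower) stayed within 1.5 times their number with a replicate block (4710 higher, 3257 lower), with only the 7 and 1 day arrays, with an intensity trend, after median centring, after cyclic loess (3699 higher, 4028 lower), without dim probe sets (15026 tested) and with array weights. Leaving out each of the 6 arrays in turn gave 7385 to 7530 calls, 4327 to 4460 higher and 3006 to 3097 lower. Fewer features are tested or counted, by construction, with 1 probe set per gene, which gave 3952 calls (2495 higher, 1457 lower), and with a 2-fold minimum, which gave 725 (209 higher, 516 lower). Of 2530 recomputed values of the 181 named genes, 28 lost their call and 0 reversed; those 28 came from 6 genes, RPL22L1, RPL22, RPL38, FABP6, SLC1A2 and LSS, and the cause was not tested. The block changed no other call of a named gene than those of RPL22L1 and FABP6. Cyclic loess turned the balance of 5 gene lists (S phase, cholesterol synthesis, oxidative phosphorylation, ribosomal proteins, ribosome biogenesis). Of the 8165 called probe sets, 443 had both means below 4.26, where signal over background is not known. Added after the data were seen, the liver list without RGN had 6 of 16 higher and 2 lower.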

Other observations

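Groups of genes beyond those above were read off after the values had been seen, so the counts below are descriptions and no list was tested. Lysosomal genes were higher at 7 days than at 1 day: of 22 measured, 16 were called higher, none lower and 6 were not called, with a median of 0.57 against 0.03 over all genes. Their mean level was 8.95 to 8.98 at 7 days, against 8.43 to 8.45 at 1 day. LAMP2, a lysosomal membrane protein, was higher by 1.04 ± 0.07, ASAH1, acid ceramidase, by 0.76 ± 0.06, LGMN, the protease legumain, by 0.74 ± 0.04, and PSAP, the precursor of the saposins that help degrade sphingolipids, by 0.68 ± 0.04 (limma adjusted p = 4.78e-09). The macrophage list was higher on the same arrays, and its part in these values was not tested.

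Notch pathway genes, which hold neural progenitors undifferentiated in vertebrate embryos, were also mostly higher at 7 days. Of 10 measured, 7 were called higher and 1 lower, against 28.0% higher and 16.3% lower over all genes. The median was 0.36. The receptor NOTCH1 was called lower, by −0.20 ± 0.05 (limma adjusted p = 0.00318). The ligand JAG2 differed by 0.46 ± 0.09, and the target genes HEY1 and HEY2 by 0.70 ± 0.07 and 0.56 ± 0.08. HES1, another target, differed by 0.17 ± 0.08 and was not called (limma adjusted p = 0.0866).

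Muscle genes divided by fibre type. Of 10 measured genes typical of slow fibres 9 were called lower and 1 higher at 7 days, with a median of −0.52 and a mean level of 10.33 to 10.37 at 7 days, against 10.95 at 1 day. Of 10 measured genes typical of fast fibres 7 were called higher and none lower, with a median of 0.14 and a mean level of 12.60 to 12.64 at 7 days, against 12.35 to 12.38 at 1 day. TNNI1 and TNNC1, slow troponins, differed by −0.55 ± 0.05 and −0.42 ± 0.05. CASQ1 and MYOZ1, fast-fibre proteins of the calcium store and the Z disc, differed by 0.69 ± 0.05 and 0.60 ± 0.04. TPM3, a slow-type tropomyosin, was the exception among the slow genes at 0.24 ± 0.04. The exact site and share of muscle in each pool are not stated in the labels.

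UMOD had 18 probe sets, of which 14 were called lower at 7 days, none higher and 4 were not called, with differences of −3.11 to 0.07.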
